A study of Mus musculus with 10 samples.

Results

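The intracellular binding proteins for fatty acids and retinoids were followed here through 5 of their genes, Fabp3, Fabp5, Fabp7, Crabp1 and Crabp2, in the developing mouse neocortex. The genes were taken by name from a deposited table of 6147 genes, so 5 of 6147 genes are described, and all 5 averaged at least 1 TPM over the libraries. They had been picked with their levels over the stages already known. For that reason their own levels and differences are given as a description, without a test. The tissue was whole neocortex of CD1 wild type mice with no genetic change or treatment, sampled 5 times, from E12.5 over E14, E15.5 and E17 to P0, where E counts embryonic days and P0 is the day of birth. Each stage had 2 libraries, 10 in all, which the submitters call biological duplicates. The labels give no litter, sex or batch, so any p-value measures the spread between these libraries only. RNA was taken from cleared tissue lysates, and the libraries were made with a stranded kit for mRNA.

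These proteins belong to one family of small cytoplasmic carriers, each folded into a barrel that encloses a single hydrophobic ligand. Fatty acid binding proteins move long-chain fatty acids between membranes, enzymes and nuclear receptors. Cellular retinoic acid binding proteins hold retinoic acid, the vitamin A product that patterns the embryo: Crabp1 keeps it in the cytoplasm and is linked to its breakdown, and Crabp2 hands it to retinoic acid receptors in the nucleus. In the cortex, Fabp7 is the classic brain-type form of radial glia, the neural stem cells of the embryonic brain. Fabp5, the epidermal type, is found in progenitors and neurons, and Fabp3, the heart type, is a neuronal form in the mature brain.

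The kinship shows at the end of the coding sequence, where an arginine and a tyrosine with any residue between them contact the ligand's acid group. The last 45 coding bases of each gene, without the stop codon, are given 5′ to 3′, with the 3 codons of this arginine-any-tyrosine motif in capitals.

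Fabp3: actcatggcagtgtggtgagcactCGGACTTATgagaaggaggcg
Fabp5: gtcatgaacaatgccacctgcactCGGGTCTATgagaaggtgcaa
Fabp7: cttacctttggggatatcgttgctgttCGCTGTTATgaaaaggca
Crabp1: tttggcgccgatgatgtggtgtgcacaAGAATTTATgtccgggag
Crabp2: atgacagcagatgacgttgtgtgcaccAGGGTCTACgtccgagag

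In the GENCODE M21 annotation of GRCm38 these stretches lie on the plus strand, each within exon 4 of 4. They are at chr4:130315178-130315222 for Fabp3, chr3:10016073-10016117 for Fabp5, chr10:57788126-57788170 for Fabp7, chr9:54772829-54772873 for Crabp1 and chr3:87952990-87953034 for Crabp2. All 5 genes keep the motif, with 4 residues after it in Fabp3 and Fabp5 and 3 in the others. Over the whole coding sequences, 396 to 414 bases long, the most alike were Crabp1 and Crabp2, with 70.3% of aligned bases identical, and then Fabp3 and Fabp7 with 66.4%. Fabp5 and Crabp1 were the least alike at 48.5%. Fabp5 and Fabp7, the pair with the most alike levels over the stages, shared 56.2%.

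The genes themselves span 130308595 to 130315463 on chromosome 4 (Fabp3), 10012548 to 10016607 on chromosome 3 (Fabp5), 57784881 to 57788450 on chromosome 10 (Fabp7), 54764748 to 54773110 on chromosome 9 (Crabp1) and 87948666 to 87953376 on chromosome 3 (Crabp2). At 90% identity or more over at least 50% of the coding length, Fabp5 had 5 look-alike genes in the annotation, all processed pseudogenes, the closest at 98.3%. Fabp3 had 1, the processed pseudogene Fabp3-ps1, at 99.2%, and the other three had 0. None of the 6 look-alikes is among the genes of the deposited table. How reads shared with these copies were counted is not stated in the labels or notes, so the levels of Fabp5 and Fabp3 carry that uncertainty.

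Before the levels are given, the E17 libraries need a word. In the fit behind the SE and the tests, the spread of a gene is shared over all 10 libraries. The E17 pair therefore enters the SE and the calls at every step. Across all genes tested, the difference between replicate 1 and replicate 2 on the log2(TPM + 1) scale had an SD of 0.285 at E17 and of 0.088 to 0.176 at the other stages. At E17 the median of that difference was -0.22 over 262 genes with transcripts of at most 1000 nucleotides and 0.30 over 2381 genes with transcripts above 4000. The main transcripts of the 5 genes are 802 to 987 nucleotides long. In E17 replicate 1 Fabp3 was lower than in replicate 2 by 0.33, Fabp5 by 0.34 and Fabp7 by 0.59, while Crabp1 and Crabp2 were higher by 0.07 and 0.09. The neocortex label was set beside marker genes: 7 of 9 listed genes of forebrain and cortical neurons were in the table and summed to 1625 to 3301 TPM. The sum includes Tubb3 and does not show the part of each gene. It was not compared with other brain regions, so it does not test the label. TPM give no read depth, so the counting error of the low values is unknown.

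Fabp5 and Fabp7 were among the most abundant transcripts listed, at all 5 stages. TPM are scaled by transcript length, which allows levels of different genes to be set side by side, though the lengths used are not stated. Fabp5 stood at 818 and 815 TPM at E12.5, 929 and 944 at E14, 1099.6 and 1144 at E15.5, 843 and 1068 at E17, and 1214 and 1177 at P0. Its 2 E17 libraries lay apart, one below and one above the E14 pair, and every other pair of stages next to each other in level was separate. Fabp5 ranked 131 of 6147 genes by level at E12.5 and, averaged over the 2 libraries, 77.5 at P0.

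Fabp5 at P0 was 1.46 times its E12.5 level, 1195 ± 26.4 against 816 ± 1.96 TPM (SD, n = 2). On the log2(TPM + 1) scale the difference was 0.55 (SE 0.10), against a median of -0.27 over all 6048 genes tested. The 4 steps between neighbouring stages were small, 0.20, 0.26, -0.24 and 0.33 in order of age. Both E17 libraries lay below both E15.5 libraries, but the size of the step into E17 depended on the library. Without E17 replicate 1 that step was -0.07, and without E17 replicate 2 it was -0.41. In a bulk tissue such as this, a change in the number of cells of a type and a change in RNA per cell cannot be told apart, for Fabp5 and for every gene below.

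Fabp7 was the other abundant carrier. Its levels were 757 and 704 TPM at E12.5, 933 and 932 at E14, 1245 and 1349 at E15.5, 1079.6 and 1622 at E17, and 1392 and 1420.3 at P0. The first 3 stages were separate and ascending. From E15.5 on the stages were no longer separate, since the E17 libraries took in the values of both E15.5 and P0. At P0 Fabp7 averaged rank 57.5 among the listed genes, from 146 at E12.5.

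The mean of Fabp7 went from 731 ± 37.4 to 1406 ± 20.1 TPM (SD, n = 2), a ratio of 1.92 and a log2 difference of 0.94 (SE 0.15). Of that, 0.35 came by E14 and 0.47 between E14 and E15.5. The later steps, 0.03 into E17 and 0.09 into P0, were smaller than their SE of 0.15. Both changed sign with the library left out at E17. The step into E17 was -0.26 without E17 replicate 2, and the step into P0 was -0.21 without E17 replicate 1.

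The ratio of Fabp7 to Fabp5 was higher at the later stages. Fabp7 was at 0.926 and 0.864 times the level of Fabp5 in the E12.5 libraries and at 1.004 and 0.987 times at E14. The ratio was 1.13 and 1.18 at E15.5, 1.28 and 1.52 at E17, and 1.15 and 1.21 at P0. A ratio within a library does not depend on that library's scaling. Which gene was more abundant is uncertain, since neither the lengths used nor the counting of reads shared with the Fabp5 pseudogenes is stated. Together the 5 genes summed to 1641 to 2781 TPM, 0.164% to 0.278% of all TPM, and Fabp5 with Fabp7 made up 92.4% to 97.6% of that sum.

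Fabp3 was the gene of the family with the widest range upward. Its levels were 7.42 and 6.89 TPM at E12.5, 13.6 and 14.1 at E14, 52.9 and 65.0 at E15.5, 70.4 and 88.9 at E17, and 169.7 and 151 at P0. No library of a later stage reached down to an earlier one, so the 5 stages stood in order of age. Fabp3 went from 0.98% of the level of Fabp7 in both E12.5 libraries to 12.2% and 10.6% at P0. Its rank moved from 5685 to 901 of 6147.

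From E12.5 to P0 the mean of Fabp3 was 22.4 times higher, 160.4 ± 13.2 against 7.16 ± 0.38 TPM (SD, n = 2), and the log2 difference was 4.30 (SE 0.13). The widest step was E14 to E15.5, a ratio of 4.26 and a log2 difference of 2.01, or 46.6% of the whole. The others were 0.86 into E14, 0.43 into E17 and 1.01 into P0. Every step was upward, though of unequal size. The 7 forebrain and cortical neuron markers in the table, none of them at 0, summed to 1625 and 1699 TPM at E12.5, 2049 and 1887 at E14, 3224 and 3301 at E15.5, 3169 and 2972 at E17, and 2914 and 3014 at P0. That sum was higher at E15.5 than at E14, but not at E17 or P0 than at E15.5, while Fabp3 went on upward. The genes of that sum went both ways. Into E15.5, 3 rose and 1 fell in the limma test (median 0.18), beside 18.4% and 33.3% of all genes. From E12.5 to P0, 3 rose and 3 fell (median -0.14), beside 27.1% and 51.0%. The part of cell numbers in the level of Fabp3 was not tested.

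**Figure D1:**
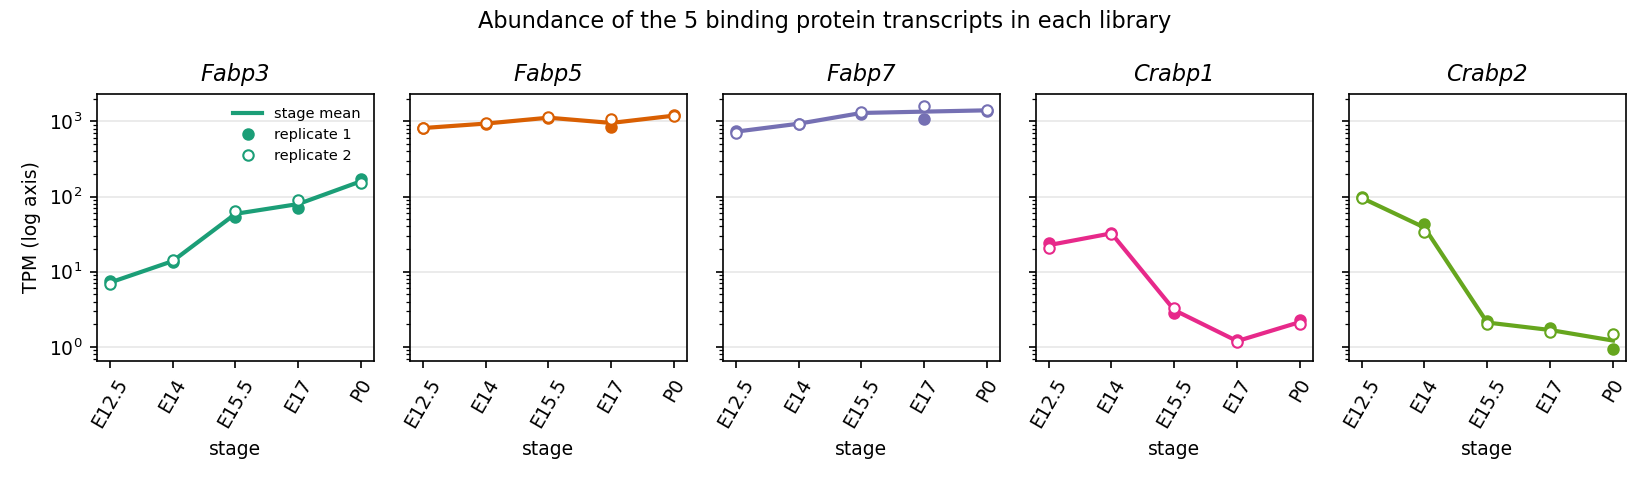
Level of each of the 5 genes in TPM (log axis) by stage, with a filled circle for replicate 1, an open circle for replicate 2 and a line through the stage means. Fabp5 and Fabp7 lie near 1000 TPM at every stage, Fabp3 goes from 7.16 to 160.4 TPM, and Crabp1 and Crabp2 lie at or below 3.31 TPM in every library from E15.5 on.

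The retinoic acid binders took the opposite course. Crabp2, the form that passes retinoic acid to its receptors, stood at 98.3 and 94.4 TPM at E12.5, 43.3 and 34.3 at E14, 2.19 and 2.03 at E15.5, 1.76 and 1.59 at E17, and 0.942 and 1.48 at P0. No 2 stages overlapped, and the order was that of age. The mean at E14 was 18.4 times that at E15.5. Over the whole period the mean went from 96.4 ± 2.76 to 1.21 ± 0.38 TPM (SD, n = 2), 79.5 times lower at P0.

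On the log2(TPM + 1) scale, which understates ratios at such low levels, Crabp2 differed by -5.47 (SE 0.14) between E12.5 and P0. The first step, into E14, was -1.30, and the second, into E15.5, was -3.67, or 67.1% of the whole. What followed was small, -0.22 into E17 and -0.28 into P0. The last step became 0.07 when the libraries were quantile normalised.

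Crabp1, the form that keeps retinoic acid in the cytoplasm, had its highest level at E14. It was at 24.3 and 20.8 TPM at E12.5, 33.0 and 31.8 at E14, 2.86 and 3.31 at E15.5, 1.24 and 1.14 at E17, and 2.26 and 2.02 at P0. The 5 stages were again separate, in the order E14, E12.5, E15.5, P0 and E17. So Crabp1 was higher at E14 than at E12.5, while Crabp2 was already lower.

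The E14 mean of Crabp1, 32.4 ± 0.90 TPM, was 10.5 times the E15.5 mean of 3.08 ± 0.32 (SD, n = 2). The log2 steps, with an SE of 0.12 each, were 0.51 into E14, -3.03 into E15.5, -0.89 into E17 and 0.52 into P0. From E12.5 to P0 the difference was -2.90, so the single step into E15.5 was 104.5% of it. In the E12.5 libraries Crabp2 was at 4.05 and 4.53 times the level of Crabp1, and at E14 at 1.31 and 1.08 times. At E15.5 it was below, at 0.766 and 0.613 times, at E17 above again, at 1.42 and 1.39 times, and at P0 below, at 0.416 and 0.735 times. The highest level of either gene from E15.5 on was 3.31 TPM, and which of the pair was more abundant carries the uncertainty of the unstated lengths.

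**Figure D2:**
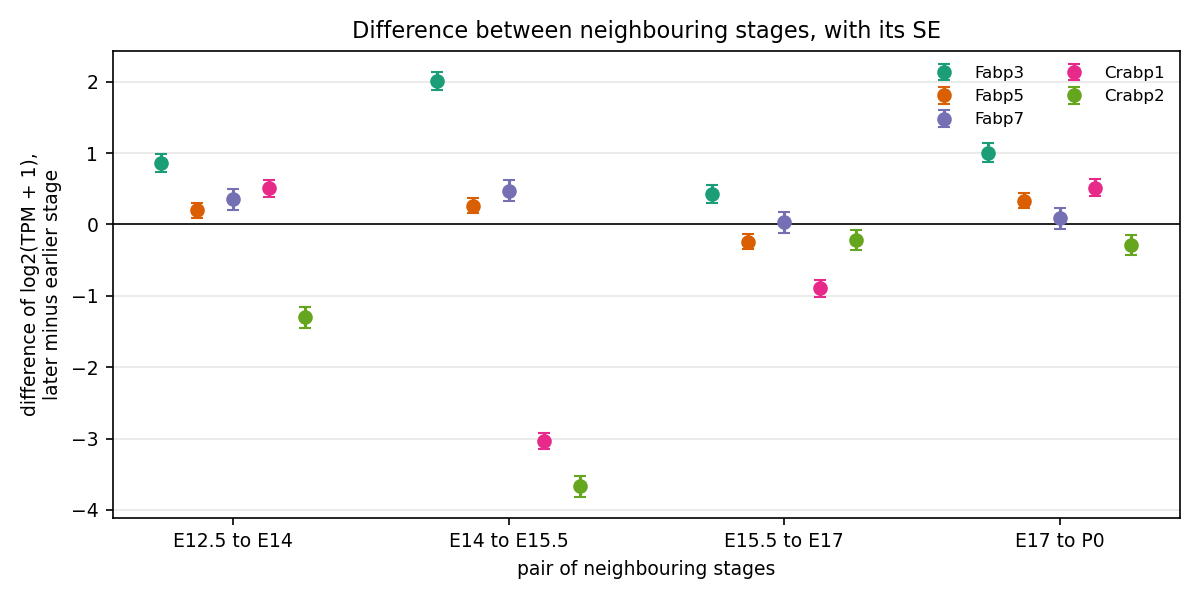
Difference of the stage means of log2(TPM + 1) between neighbouring stages (later minus earlier) for the 5 genes, with bars of 1 SE. The step from E14 to E15.5 holds the widest differences, 2.01 for Fabp3, -3.03 for Crabp1 and -3.67 for Crabp2, while Fabp5 and Fabp7 stay between -0.24 and 0.47 at every step.

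Counted over the family, 3 genes had higher libraries at P0 than at E12.5 (Fabp3, Fabp5 and Fabp7) and 2 had lower ones, with no overlap between the stages in any. Among all genes tested, the libraries of these stages lay apart with P0 higher in 32.5% and with P0 lower in 58.4%. At E14 against E12.5 the libraries of 4 genes were higher and those of Crabp2 lower, beside 24.7% and 45.4% of all genes. At E15.5 against E14, 3 were higher and 2 lower, beside 31.6% and 56.1%. For E17 against E15.5, Fabp3 was higher, Fabp5, Crabp1 and Crabp2 were lower, and Fabp7 overlapped, beside 30.7% and 29.7%. At P0 against E17, Fabp3, Fabp5 and Crabp1 were higher, Crabp2 was lower and Fabp7 overlapped, beside 22.0% and 39.9%. Since the genes were chosen for such differences, nothing is read from these counts.

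Markers of tissues around the cortex went down at the same step as Crabp1 and Crabp2. Of 12 listed genes of the meninges, the membranes over the brain, 8 were in the table, none at 0 at any stage. They summed to 223 and 221 TPM at E12.5, 143 and 140.3 at E14, 10.2 and 9.63 at E15.5, 24.0 and 17.9 at E17, and 11.9 and 10.5 at P0. From E14 to E15.5 all 8 fell in the limma test (adjusted p under 0.05 over all genes tested), with a median log2 difference of -3.38. All 8 also fell over the whole span to P0. Of all genes 33.3% fell from E14 to E15.5, with a median of -0.13, and 51.0% fell over the whole span.

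The markers of vessels, choroid plexus and red cells were also lower at E15.5. Of 12 vessel genes, 4 were in the table and summed to 45.1 and 48.3 TPM at E14 and to 7.73 and 8.16 at E15.5. Choroid plexus, the tissue that makes cerebrospinal fluid, had 2 of 8 genes in the table, Ttr and Clic6. Their sum was 452 and 303 TPM at E12.5, 1405 and 1517 at E14, and 3.07 to 5.26 in the 6 later libraries. For red blood cells, 3 of 9 genes were in the table, Hbb-y, Hbb-bh1 and Slc4a1. They summed to 4323 and 4494 TPM at E12.5, 1975 and 1880.3 at E14 and 2.04 to 9.84 from E15.5 on. The embryonic globin Hbb-bh1 was listed at 0 in both P0 libraries. The globins Hba-a1, Hba-a2, Hbb-bs and Hbb-bt were not among the rows, so the sum does not give the amount of red cells.

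The profiles did not run together everywhere. At E14, when Crabp1 was at its highest, the choroid plexus sum was higher than at E12.5 and the meninges, vessel and red cell sums were lower. From E15.5 to E17 Crabp1 and Crabp2 differed by -0.89 and -0.22, while the meninges sum was higher in both E17 libraries. In the limma test 6 of the 8 meninges genes rose, beside 14.4% of all genes, with a median of 0.59 over the 8. Without E17 replicate 1 the median was 0.43, beside -0.05 over all genes, and without E17 replicate 2 it was 0.69, beside 0.09. The part of these tissues in the levels of Crabp1 and Crabp2 was not tested.

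**Figure D3:**
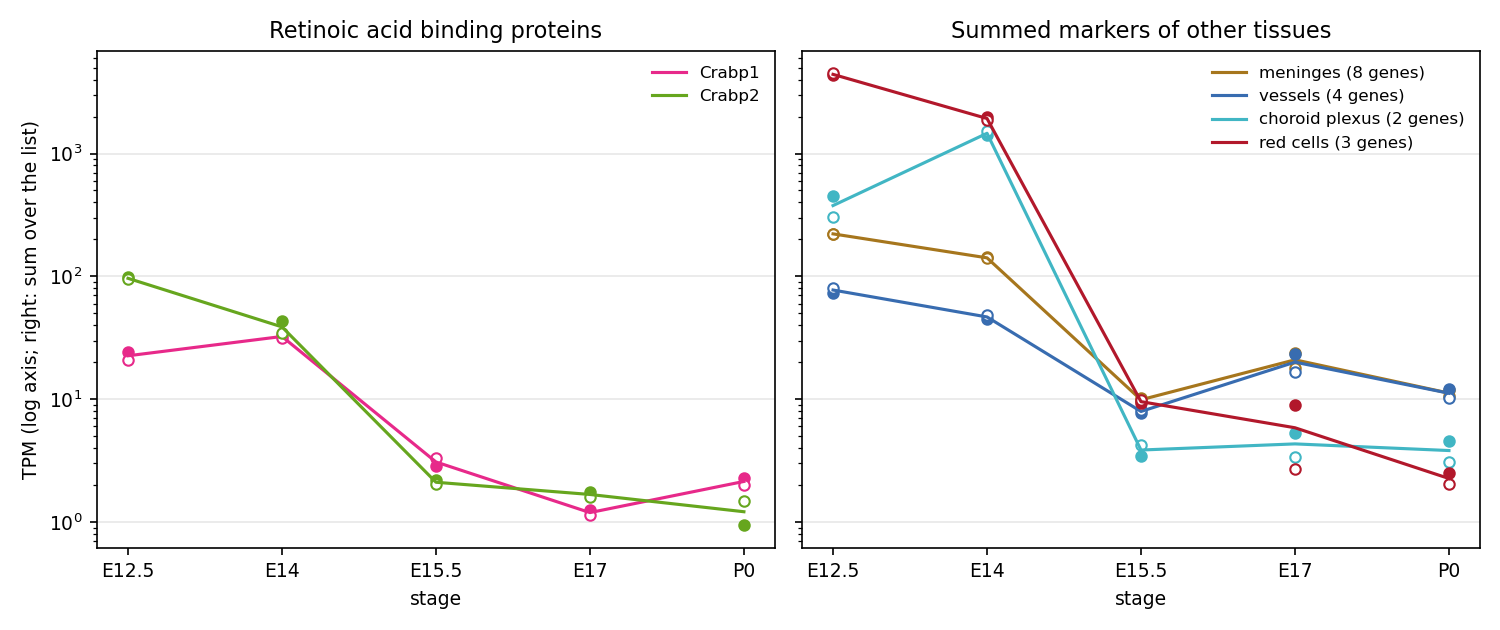
Levels in TPM (log axis) by stage of Crabp1 and Crabp2 (left) and of the summed markers of meninges, vessels, choroid plexus and red cells (right), with filled circles for replicate 1, open circles for replicate 2 and lines through the stage means. Crabp1, Crabp2 and all 4 sums are far lower at E15.5 than at E14, and the meninges and vessel sums are higher at E17 than at E15.5.

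Fabp7 did not follow the other markers of radial glia. Of 11 such markers, 9 were in the table, and the 8 besides Fabp7, none at 0, summed to 1599 and 1655 TPM at E12.5, 1314 and 1243 at E14, 750.2 and 748 at E15.5, 589 and 558 at E17, and 461 and 506 at P0. Between E12.5 and P0, 51.0% of all genes fell and 27.1% rose in the limma test, with a median of -0.27. Of the 8 markers 6 fell and 2 rose, with a median of -2.86. The stem cell transcription factors Pax6 (-3.12) and Sox2 (-1.81) and the filament proteins Nes (-2.93) and Vim (-2.78) were among those that fell. Those that rose were the glutamate transporter Slc1a3 (0.22, adjusted p = 0.0484) and the glutamine synthetase gene Glul (0.57, adjusted p = 0.000297), both of which astrocytes also express. The call for Slc1a3 was lost in 11 of 19 alternative settings.

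The astrocyte markers were mixed. Of 10 listed, 6 were in the table, none at 0, and they summed to 364 and 385.5 TPM at E12.5, 373 and 333 at E14, 229 and 233 at E15.5, 284 and 256 at E17, and 440.0 and 418 at P0. Over the whole span 5 rose and 1 fell in the limma test, beside 27.1% and 51.0% of all genes. The filament gene Gfap rose by 4.58 to 27.7 and 25.5 TPM, and Aldh1l1, an enzyme of folate metabolism, rose by 3.55 to 12.9 and 14.6 TPM. The glycolytic gene Aldoc fell by 1.09. The sum of the astrocyte markers was lowest at E15.5, where Fabp7 averaged 1297 TPM. From E14 to E15.5, 3 of the 6 rose and 2 fell in limma, with a median of 0.04, beside 18.4% and 33.3% of all genes. The share of either cell type in the level of Fabp7 was not tested.

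**Figure D4:**
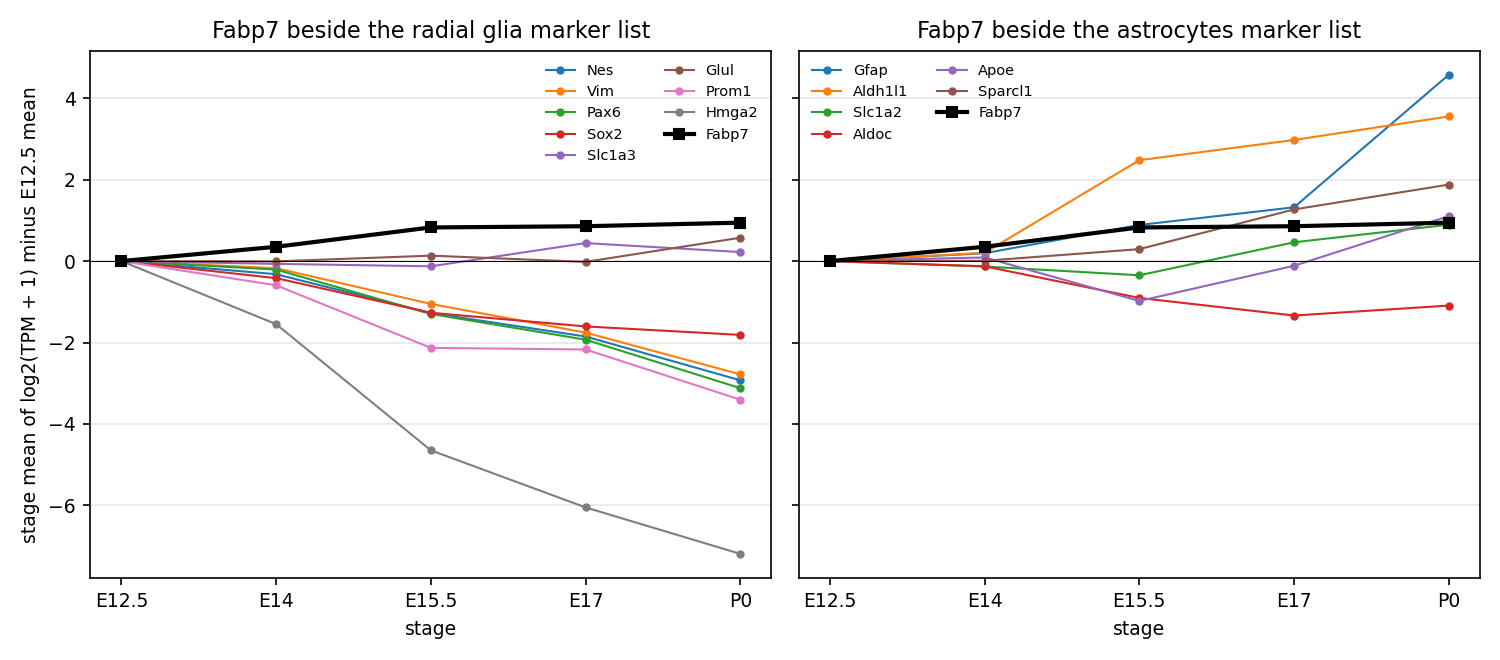
Stage means of log2(TPM + 1) relative to E12.5 for Fabp7 (black squares) beside 8 radial glia markers (left) and 6 astrocyte markers (right), by stage. Fabp7 ends 0.94 above its E12.5 level, 6 of the 8 radial glia markers end far below theirs, and 5 of the 6 astrocyte markers end above theirs.

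For each gene the 3 most similar profiles were sought among 5425 genes averaging at least 10 TPM. The measure was the root mean square difference of log2(TPM + 1), centred on each gene's mean, over the 10 libraries, and a smaller value means a closer profile. Fabp3 lay closest to Prkar1b (0.167), a regulatory subunit of protein kinase A, Camkv (0.179), a kinase-like protein of vesicles, and Rac3 (0.219), a small GTPase. The median over all genes compared with Fabp3 was 1.69. Prkar1b went from 21.6 to 442 TPM, a log2 difference of 4.29 (SE 0.08), near the 4.30 of Fabp3.

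The 3 nearest profiles to Fabp5 were those of Arpc3 (0.048), a subunit of the actin-nucleating complex, Myeov2 (0.064) and Atp6v1h (0.064), a subunit of the vesicular proton pump, beside a median of 0.388. Arpc3 averaged 242 TPM at E12.5, 317 at E15.5, then 286 at E17 and finally 346 at P0, so it too was lower at E17 than at E15.5. For Fabp5 the size of that difference depended on the E17 library. The measure runs over single libraries, so the difference between the E17 replicates enters it as well. The neighbours of Fabp7 were Commd3 (0.087), Atpif1 (0.094), an inhibitor of the mitochondrial ATP synthase, and Mcts1 (0.1001), beside a median of 0.521.

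Among the retinoic acid binders, Crabp1 was nearest to Lgals1 (0.287), a secreted galectin, then Lef1 (0.435), a transcription factor of Wnt signalling, and Gsta4 (0.518), a glutathione transferase, beside a median of 1.54. None of the 3 had a higher mean at E14 than at E12.5, as Crabp1 had. Lgals1 went from 133 and 119 TPM at E12.5 and E14 to 18.7 at E15.5. Crabp2 was nearest to Hbb-bh1 (0.219), an embryonic globin, Col3a1 (0.278), a fibrillar collagen, and Lum (0.291), a proteoglycan of connective tissue, beside a median of 2.20. Hbb-bh1 is on the red cell list used above, and Col3a1 and Lum are on the meninges list.

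Within the family the closest pair was Fabp5 and Fabp7, at 0.228. Crabp1 and Crabp2 lay 0.927 apart, and the farthest pair was Fabp3 and Crabp2, at 3.85. All of these values come from the same 10 libraries and describe them only.

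The wider retinoid pathway was thinly covered, with 17 of 44 listed genes in the table. The enzymes that break retinoic acid down, of the Cyp26 family, were not among the rows, and of 6 receptors there was only Rxrb. From E12.5 to P0, 3 of the 17 rose and 8 fell in the limma test, with a median log2 difference of -0.28. Among all genes tested 27.1% rose and 51.0% fell, with a median of -0.27. The balance of rises and falls depends on the scaling. With median-of-ratios scaling, which brought the median of all genes to -0.01, 6 rose and 8 fell, beside 37.9% and 37.7% of all genes. After quantile normalisation 7 rose and 8 fell, beside 36.6% and 40.0%.

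By role, carriers held the widest change. Ttr, the transport protein of thyroid hormone and retinol and also one of the choroid plexus markers above, fell by 6.29 (SE 0.21, adjusted p = 2.01e-10), from 438 and 293 TPM to 4.35 and 2.93. Rlbp1, a retinal carrier, rose by 0.24 (adjusted p = 0.0202), a call lost in 3 of 19 alternative settings. The secreted carrier Rbp4 differed by -0.13 (adjusted p = 0.469).

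Of 15 genes listed for synthesis, 4 were in the table, and Aldh1a1, Aldh1a2 and Aldh1a3 were not among the rows. Those 4, enzymes that turn retinol into retinal and back, were divided. Dhrs4 fell by 2.45 (SE 0.10, adjusted p = 9.83e-10), from 57.4 and 65.1 TPM at E12.5 to 9.74 and 11.01 at P0, and Rdh13 rose by 0.49 (adjusted p = 0.000674). Rdh11 and Rdh14 were not called over the whole period. The receptor Rxrb stayed between 49.8 and 60.3 TPM in all 10 libraries and differed by 0.10 (adjusted p = 0.374).

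Of 5 receptor cofactors, the coactivator Ncoa1 rose by 0.81 (adjusted p = 8.28e-05), and the corepressor Ncor1 (-0.57) and the mediator subunit Med1 (-0.66) were among those that fell. Of 3 genes listed as retinoic acid targets, Tgm2, a transglutaminase, fell by 1.50 (adjusted p = 6.6e-07), from 3.65 and 3.71 TPM at E12.5 to 0.557 and 0.751 at P0. The orphan receptor gene Nr2f1 fell by 0.50 (adjusted p = 0.000793), and Nr2f2 was not called at -0.15 (adjusted p = 0.167).

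At the step with the widest differences of Crabp1 and Crabp2, from E14 to E15.5, 1 retinoid gene rose and 9 fell, beside 18.4% and 33.3% of all genes. With median-of-ratios scaling these counts were 4 and 8, beside 26.0% and 25.8% of all genes. The fall of Tgm2 at this step was -1.88 (adjusted p = 6.79e-07), and that of Ttr was -8.23 (adjusted p = 8.62e-10). The 10 calls became 5 without E14 replicate 2 and without either E15.5 library. From E12.5 to E14, 2 rose and 0 fell, beside 3.95% and 4.78%, and both, Ttr and Rlbp1, are carriers. At an unadjusted p under 0.05 in limma, 3 were higher and 1 lower. That count of 2 was lower without either E12.5 library or E14 replicate 1. It was higher without either E17 library, as were the counts of all genes.

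Into E17, 2 retinoid genes rose and 3 fell, beside 14.4% and 10.6% of all genes. These counts changed when E17 replicate 2 or either E15.5 library was left out. The median of all genes at this step was 0.01, and it was 0.09 without E17 replicate 2. Into P0, 0 rose and 4 fell in limma, the same counts as at an unadjusted p under 0.05, beside 12.9% and 28.8% of all genes. With median-of-ratios scaling 2 rose and 3 fell, and after quantile normalisation 3 rose and 3 fell. Without E17 replicate 2, 0 rose and 8 fell.

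The fatty acid pathway was better covered, with 47 of 73 listed genes in the table. From E12.5 to P0, 11 of the 47 rose and 30 fell in the limma test, with a median of -0.46. Of all genes tested 27.1% rose and 51.0% fell, with a median of -0.27. With median-of-ratios scaling 14 rose and 23 fell, beside 37.9% and 37.7% of all genes. After quantile normalisation 16 rose and 23 fell, beside 36.6% and 40.0%. More genes of the list fell than rose under each. The nuclear receptors for fatty acids, the Ppar genes, were not among the rows.

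Most genes for uptake and activation rose. Of 10, 6 rose and 2 fell, with a median of 0.63. Of all genes 27.1% rose and 51.0% fell, with a median of -0.27. Acsl1, which couples fatty acids to coenzyme A, rose by 1.97 (SE 0.12, adjusted p = 2.63e-08), from 2.95 and 3.40 TPM at E12.5 to 14.9 and 15.8 at P0. Acot7, a brain thioesterase that reverses that step, rose by 1.82 (adjusted p = 2.54e-09), from 48.9 and 50.8 to 185 and 171 TPM. The lipase Lpl rose by 1.30 (adjusted p = 5.92e-08) and the activating enzyme Acsbg1 by 1.29 (adjusted p = 1.27e-06). Dbi, an abundant binding protein for activated fatty acids, was at 343 and 339 TPM at E12.5, 507 and 486 at E14 and 249 and 265 at P0. It rose by 0.54 to E14 (adjusted p = 0.00456) and then fell by 0.47 to E15.5 (adjusted p = 0.000835).

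Mitochondrial oxidation went the other way, in 18 of 19 genes measured. Their median was -0.82 from E12.5 to P0, beside a median of -0.27 and 51.0% falls among all genes, and the one not called was Cpt1c (0.18, adjusted p = 0.347), a neuronal form of the carnitine transferase. With median-of-ratios scaling 15 fell and 1 rose, beside 37.7% and 37.9% of all genes. After quantile normalisation 13 fell and 1 rose, beside 40.0% and 36.6%. The call of Acaa2 (-0.27, adjusted p = 0.0495 in limma) was lost in 13 of 19 alternative settings, and its sign changed in 2. Hadh fell by 2.36 (SE 0.09, adjusted p = 7.17e-10), from 62.3 and 61.8 TPM at E12.5 to 11.2 and 11.4 at P0, and Acads fell by 2.22 (adjusted p = 4.61e-09). Both encode dehydrogenases of the oxidation cycle for shorter chains. At the step from E14 to E15.5, 14 of the 19 oxidation genes fell and 0 rose in limma, with a median of -0.56. Of all genes 33.3% fell and 18.4% rose at this step, with a median of -0.13. At an unadjusted p under 0.05 these counts were 16 and 0.

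The remaining groups were mixed, beside 27.1% rises and 51.0% falls among all genes from E12.5 to P0. Of 6 genes for elongation and desaturation, 1 rose and 5 fell over the whole period, with Elovl1, an elongase of saturated chains, lower by 1.81 on the log2 scale (adjusted p = 1.56e-06). The rise, that of Tecr, lost its call in 8 of 19 alternative settings. Of these genes 5 rose into E17, beside 14.4% of all genes, and all 6 fell into P0, beside 28.8%. The first count was 0 without E15.5 replicate 1, where 6 had an unadjusted p under 0.05 in limma, and 1 without E15.5 replicate 2. The second was 3 without P0 replicate 2. The first count also moved with either E17 library left out, and the second without E17 replicate 1. Of 6 peroxisomal genes 3 rose and 3 fell, and Abcd2, a transporter of very long chains, fell by 2.46 (adjusted p = 2.26e-09). Of 6 synthesis genes, Fasn rose by 0.62 (adjusted p = 0.00154), Acly fell by 1.42 (adjusted p = 2.51e-07) and Acss2 fell by 0.44 (adjusted p = 0.00259), while the other three were not called. Acss2 lost its call in 3 of 19 alternative settings and changed sign in 1 of them.

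Over the single steps, the fatty acid list had 2 rises and 2 falls into E14, where 3.95% of all genes rose and 4.78% fell. It had 4 and 22 into E15.5, beside 18.4% and 33.3% of all genes, and 13 and 7 into E17, beside 14.4% and 10.6%. Into P0 it had 7 and 13, beside 12.9% and 28.8%. The counts into E14 and into P0 lay near the shares of all genes. The balance of these calls moved with the scaling. With median-of-ratios scaling, 7 rose and 18 fell into E15.5, beside 26.0% and 25.8% of all genes. After quantile normalisation, 12 rose and 13 fell into E17, beside 15.1% and 16.1%. Into P0, 14 rose and 7 fell after it, beside 20.8% and 19.6%. Both were the reverse of the balance without it.

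The counts also changed with single libraries left out, as did those of all genes with either E17 library left out. The spread of each gene is shared over all 10 libraries, so the E17 pair enters the calls at steps without E17. The 4 calls into E14 became more without either E17 library, as did the calls of all genes. They became fewer without either library of E12.5, E14 or E15.5. The 20 calls into E17 became more without E17 replicate 2, as did those of all genes, and fewer without either E15.5 library. The 20 calls into P0 became fewer without P0 replicate 2.

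**Figure D5:**
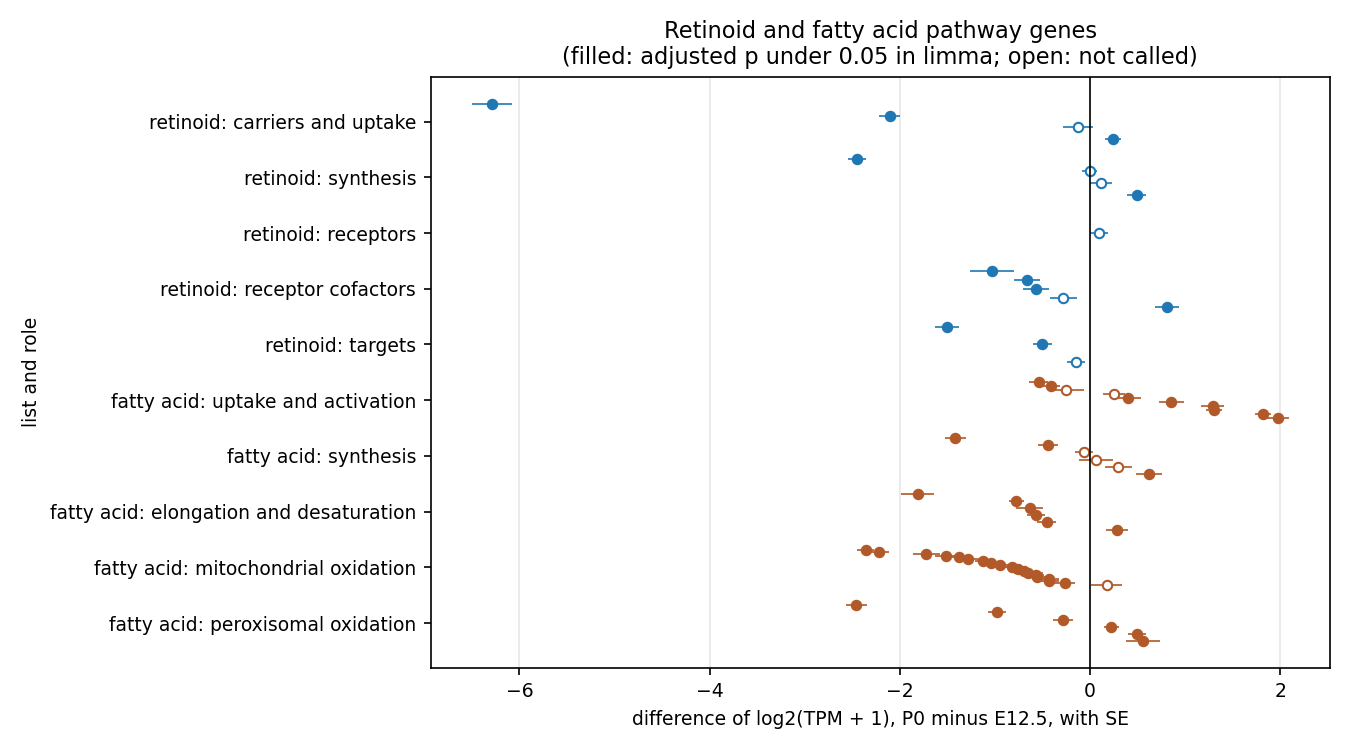
Difference of log2(TPM + 1) between P0 and E12.5 for the 17 retinoid and 47 fatty acid pathway genes, grouped by role, with bars of 1 SE; filled circles have an adjusted p under 0.05 in limma. Ttr lies farthest to the left at -6.29. Of 19 genes of mitochondrial oxidation 18 are filled and below 0, beside 51.0% of all genes tested. Of 10 genes of uptake and activation 6 are filled and above 0, beside 27.1%.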

How the data were processed

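The 5 genes and all lists were chosen with earlier results of these data known. The authors deposited 1 table of TPM (transcript abundance scaled by length and to a fixed total) for 10 libraries, per the file headers. The submitters' processing notes name STAR, Subread and the build GRCm38.p5. The 6147 rows hold 68.9% to 71.7% of each library's TPM total. Not given in the sources used here are the annotation, the transcript lengths and how rows were selected. TPM are not counts, so log2(TPM + 1) of the 6048 genes averaging at least 1 TPM was fitted with limma 3.58.1 (R 4.3.3), 1 mean per stage over all 10 libraries and a mean-variance trend, with Benjamini-Hochberg adjustment over all genes tested and a threshold of 0.05. "Rose" and "fell" refer to that test. The script was tested on simulated data. Pathway genes were named as the 4 widest rises and falls per list from E12.5 to P0 and wherever a role is described, markers where a level is given. Profiles leave out names starting with Gm or LOC or ending in Rik. Coding sequences and positions are from GENCODE M21 (GRCm38), aligned with biopython 1.88; look-alikes were found with blastn 2.17.0. Tables were made with pandas 2.3.3 and numpy 2.4.6 under Python 3.11.15, figures with matplotlib 3.10.9. Alternatives were other pseudocounts, filters and scalings, a replicate block, fits of the stages compared only, and leaving out each library. Values of some listed genes are not reported here.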

Additional observations from a re-analysis of the deposited data

How the results depend on the processing

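From E12.5 to P0 each of the 5 genes kept its direction under all 19 alternatives. Many of these could not change it, since the difference is taken between 2 stage means. Other filters, the replicate block, fits of only the stages compared and leaving out a library of E14, E15.5 or E17 all left it as it was. With a pseudocount of 0.1 TPM the log2 difference was 4.47 for Fabp3, -3.34 for Crabp1 and -6.23 for Crabp2, and with 10 TPM 3.31, -1.42 and -3.25. Quantile normalisation gave 4.55 for Fabp3, 0.59 for Fabp5, -2.35 for Crabp1 and -5.07 for Crabp2. Median-of-ratios scaling moved the median of all genes from -0.27 to -0.01 and gave 4.56 for Fabp3, 0.83 for Fabp5, 1.22 for Fabp7 and -2.68 for Crabp1. Centring on genes with short transcripts, chosen after seeing the data, gave 0.58 for Fabp5. Leaving out 1 library gave 4.22 to 4.39 for Fabp3, 0.53 to 0.57 for Fabp5, 0.892 to 0.996 for Fabp7, -3.01 to -2.80 for Crabp1 and -5.65 to -5.29 for Crabp2.

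Of 380 values of the single steps, 5 changed sign and 23 moved by more than the spread between replicates. Many of the 380 could not move, among them those with a library of another stage left out. For Fabp7 the step into E17 was 0.03. Leaving out 1 library gave -0.26 (E17 replicate 2) to 0.32 (E17 replicate 1), with -0.03 when E15.5 replicate 1 was left out. Its step into P0 was 0.09, and leaving out 1 library gave -0.21 (E17 replicate 1) to 0.38 (E17 replicate 2). Centring on short transcripts turned that step to -0.0297. Quantile normalisation turned the step of Crabp2 into P0 from -0.28 to 0.0714.

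Counts of called pathway genes differed between settings. A fit of only the 2 stages compared called 4 retinoid and 15 fatty acid genes from E12.5 to E14, 40 fatty acid genes from E14 to E15.5, 1 and 0 from E15.5 to E17 (5 and 24 at an unadjusted p under 0.05 in limma), and 10 fatty acid genes from E17 to P0. Centring on short transcripts called 1 and 1 from E12.5 to E14, 5 retinoid genes from E14 to E15.5, and 2 and 8 from E15.5 to E17. Leaving out 1 library gave 1 to 4, 5 to 12, 3 to 11, 3 to 8 and, from E12.5 to P0, 10 to 12 retinoid genes, and 0 to 11, 20 to 35, 3 to 34, 13 to 27 and 35 to 44 fatty acid genes. Since the fit shares the spread of each gene over all libraries, a library left out also changes the calls at steps that it is not part of. Other causes were not tested. With the replicate number as a block, 2 fatty acid genes were called from E12.5 to E14 in place of 4. Deviations of same-numbered libraries from their stage means correlated by -0.37 to 0.11 over 10 stage pairs, with 1 above 0.1, and no pairing by number was used. With 2 libraries a stage, this check cannot show whether libraries shared a litter or batch.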
